A study of Mus musculus with 8 samples.

Results

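Astrocyte and oligodendrocyte transcripts were followed in tumour cells, myeloid cells and glial cells of mouse small cell lung cancer allografts. The 7 genes were taken by symbol from the deposited feature lists, which hold 22056 features, and all 7 were found. They are Gfap, Slc1a2, Slc1a3 and Aqp4 for astrocytes, and Mbp, Mobp and Cnp for oligodendrocytes. N2N1G, an established mouse small cell lung cancer line, was grown in culture and the same number of cells was transplanted for each allograft, in every group. The groups were 2 brain and 3 subcutaneous (flank) allografts placed by direct injection, and 3 liver allografts seeded through the tail vein, so that liver and the tail vein route cannot be told apart. All were harvested after 3 weeks and dissociated, and healthy single cells were taken by flow sorting for 10x 3' libraries. The labels used here give no host strain, sex or age, and do not say whether each allograft came from its own mouse. The p-values below rest on the spread between these libraries, which may be technical, and all groups rest on 1 line. The edgeR fits also share estimates of that spread across genes.

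Astrocytes wrap synapses and vessels, clear glutamate and hold the intermediate filament protein GFAP, which increases after brain injury. Oligodendrocytes wrap axons in myelin. Mbp messenger RNA is carried along oligodendrocyte processes and translated at the myelin sheath, and astrocyte processes also hold locally translated messages. The Mbp gene has, besides the myelin forms, longer golli transcripts that occur outside oligodendrocytes, and 3' counting does not separate the forms. In droplet libraries, RNA released from broken cells and cell fragments can be counted in droplets that hold another cell, so a glial UMI (unique molecular identifier, 1 captured molecule) in a tumour cell's barcode does not show by itself that the cell made it.

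The promoters of Gfap, the gene of that filament protein, and of Slc1a3, an astrocyte glutamate transporter, are shown because, of the 5 members whose promoter was read (the other two members were not used here), these are the ones with a match of the STAT motif TTCNNNGAA. STAT3 is a known activator of Gfap in reactive astrocytes. Capitals mark the match. Both are RefSeq promoters of GRCm38.p6, from 250 bases before to 50 after the start, written along the gene's own strand. They are chr11:102897151-102897450 on the minus strand and chr15:8710758-8711057 on the minus strand.
Gfap: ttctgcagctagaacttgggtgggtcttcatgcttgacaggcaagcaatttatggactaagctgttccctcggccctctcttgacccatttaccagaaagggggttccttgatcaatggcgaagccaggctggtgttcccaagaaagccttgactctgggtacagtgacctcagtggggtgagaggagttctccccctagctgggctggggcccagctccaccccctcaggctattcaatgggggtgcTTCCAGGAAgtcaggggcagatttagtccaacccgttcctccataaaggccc
Slc1a3: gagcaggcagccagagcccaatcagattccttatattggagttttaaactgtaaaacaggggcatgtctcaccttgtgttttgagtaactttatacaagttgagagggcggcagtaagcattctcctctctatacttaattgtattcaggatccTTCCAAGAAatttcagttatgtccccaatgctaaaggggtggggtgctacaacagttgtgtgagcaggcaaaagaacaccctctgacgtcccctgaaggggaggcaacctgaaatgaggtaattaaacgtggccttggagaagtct
The motif reads the same on both strands, and 8.30% of 32851 promoters of this length held it, so the matches are a description of these windows.

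On the mouse assembly GRCm38 (the mm10 build of the files) Gfap lies on chromosome 11 from 102887336 to 102900912, minus strand. Slc1a2, the main glutamate transporter of astrocytes, lies on chromosome 2 from 102658659 to 102790784, plus strand. Slc1a3 lies on chromosome 15 from 8634124 to 8710764, minus strand. Aqp4, the water channel of astrocyte endfeet, lies on chromosome 18 from 15389496 to 15410982, minus strand. Mbp, myelin basic protein, lies on chromosome 18 from 82475146 to 82585637, plus strand. Mobp, a myelin-associated basic protein, lies on chromosome 9 from 120149707 to 120181484, plus strand. Cnp, a phosphodiesterase of myelin membranes, lies on chromosome 11 from 100574904 to 100591729, plus strand, and overlaps Dnajc7 on the other strand. Because the strand setting of the counting is not given in the sources used here, reads from that overlap may belong to either gene. All 7 are protein coding.

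The 8 libraries held 38460 barcodes and 372293350 UMIs, between 27140735 and 63049542 UMIs per library. After removal of barcodes with under 500 genes or over 10% mitochondrial UMIs, 36797 cells remained. A cell was called a tumour cell when eGFP and Mycl together made at least 0.2% of its UMIs, which gave 2418 and 4060 tumour cells in the brain libraries and 4114 to 6276 in the other 6. Median depth was 7971.5 and 8409 UMIs per tumour cell in brain and 9250 to 10542 elsewhere. In the brain libraries, 146 and 115 cells lay within 0.1% to 0.3%, near that threshold. Pairs of libraries shared 16 to 51 barcodes, 806 of 35976 distinct barcodes in all. No doublet caller was run. In brain, 44 and 13 tumour cells also passed the myeloid gate and 2 and 3 a glial gate, and leaving them out kept the direction and the call of all 7 genes against liver and against subcutaneous.

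Glial cells proper were few and came from the brain allografts. Among cells below the tumour rule, the glial gate took at least 0.5% of UMIs and at least 4 genes. Both were counted over the astrocyte, oligodendrocyte and precursor marker lists together, none of which holds a member. Each cell was named by the list with most UMIs. In brain libraries 1 and 2 this found 4 and 15 astrocyte-like and 11 and 17 oligodendrocyte-like cells. Cells like oligodendrocyte precursors (OPC-like) numbered 6 and 3, and the median one had 0.273% astrocyte and 1.13% precursor gate UMIs. No cell of the liver or subcutaneous libraries passed a glial gate. Near the glial threshold (0.25% to 1%) lay 4 and 5 brain cells. Lists that did not choose the cells separate the classes: 15 further astrocyte genes summed to 35057 and 42539 CPM in astrocyte-like and to 6287 and 7544 CPM in oligodendrocyte-like cells. Another 13 oligodendrocyte genes summed to 79925 and 64999 CPM in oligodendrocyte-like and to 2129 and 4965 CPM in astrocyte-like cells. Of other classes' gate lists the median astrocyte-like cell had 0% oligodendrocyte and 0.0185% myeloid UMIs, and the median oligodendrocyte-like cell had 0% astrocyte and 0.0216% myeloid UMIs. A gate of at least 1% of UMIs from myeloid genes found 822 and 258 brain myeloid cells, with 40 and 17 cells between 0.5% and 2%, and 189 myeloid cells at the other sites. Both gates cut a range and need not hold one cell type each.

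In their own cells the genes stood higher, over both libraries, than in the other kept populations (levels are CPM, the UMIs of a gene scaled to one fixed total of UMIs). In the 19 astrocyte-like cells Slc1a3 was at 3989 CPM, Slc1a2 at 2027, Aqp4 at 1190 and Gfap at 1014, against 26.5, 0, 0 and 46.3 in the 28 oligodendrocyte-like cells. Slc1a2 and Slc1a3 were seen in 19 of 19 astrocyte-like cells and Aqp4 in 17, but Gfap in 7 of 19. The Gfap level also differed between the libraries, at 304 CPM (4 cells) and 1303 CPM (15 cells). In the oligodendrocyte-like cells Mbp was at 11846 CPM, Cnp at 7600 and Mobp at 2282, and Mbp was seen in 28 of 28 cells. These are sums over few cells of 2 allografts and carry no test. OPC-like cells held 48 UMIs of the 7 genes, of which 21 were Cnp and 12 Slc1a3, and their Mbp level of 273 CPM was far below that of the oligodendrocyte-like cells.

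**Figure D1:**
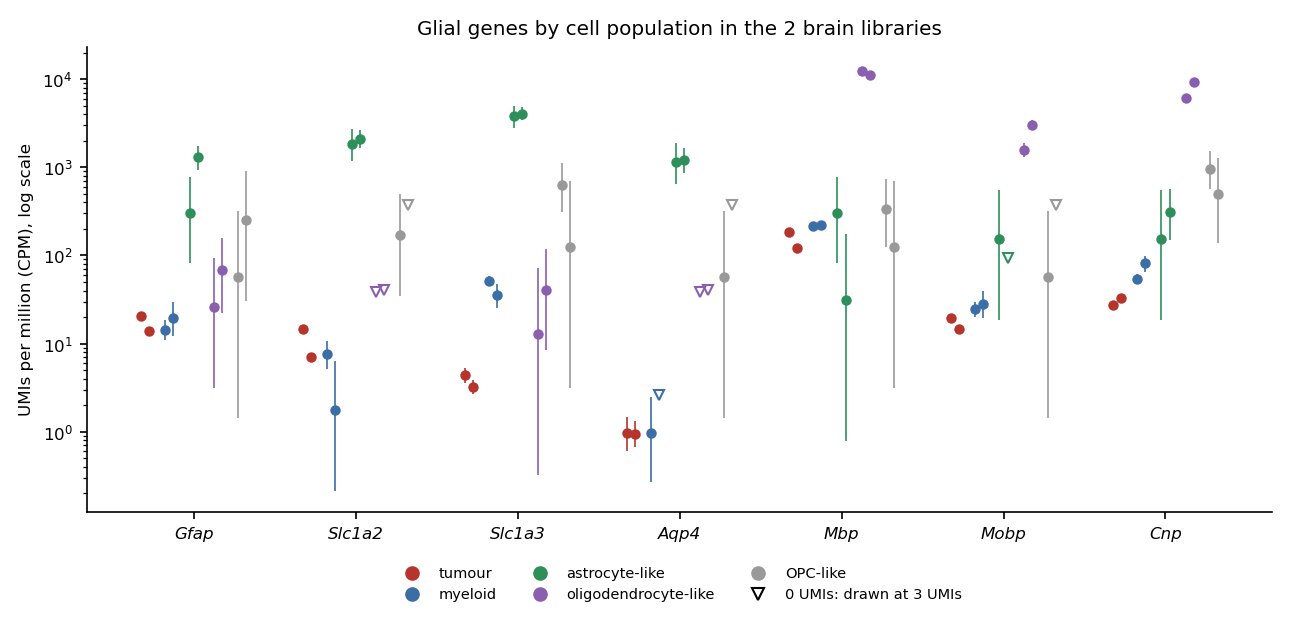
Level of each gene in CPM (log axis) in the cell populations of brain libraries 1 and 2, 1 point per library, bars 95% exact Poisson intervals for counting error, open triangles 0 UMIs drawn at the level of 3. Astrocyte-like cells stand highest for Gfap, Slc1a2, Slc1a3 and Aqp4 and oligodendrocyte-like cells for Mbp, Mobp and Cnp, while tumour and myeloid cells lie far lower, with Slc1a3 higher in myeloid than in tumour cells.

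Tumour cells of the brain allografts held more of the astrocyte transcripts than tumour cells elsewhere. Gfap was at 20.3 and 13.8 CPM in brain, at 0, 0.0836 and 0.0432 CPM in liver and at 1.39, 0.0322 and 0.116 CPM in subcutaneous allografts. The brain libraries lay above all 6 others, and subcutaneous library 1 stood apart from its group. By edgeR's quasi-likelihood test, adjusted over 13931 genes, Gfap was higher in brain than in liver (log2 difference 8.47, SE 1.36, adjusted p = 0.00629) and than in subcutaneous tumours (5.16, SE 1.04, adjusted p = 0.0200). Without subcutaneous library 1 the latter difference was 7.86 (adjusted p = 5.0e-06). That library's 58 Gfap UMIs came from 6 of 4150 cells, 1 of which held 37.

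Slc1a2 was at 14.6 and 7.03 CPM in brain tumour cells, 0.907 to 1.01 CPM in liver and 1.42 to 1.87 CPM in subcutaneous ones. Brain library 1 was the higher of the pair, and the low level at the other sites was present in each of the 6 libraries. On the log2 scale it exceeded liver by 3.38 (SE 0.302, adjusted p = 0.000522, edgeR). It exceeded subcutaneous tumours by 2.76 (SE 0.292, adjusted p = 0.00129). Slc1a3 was at 4.38 and 3.204 CPM in brain, at 0.0405, 0.0209 and 0 CPM in liver and at 0.168, 0.0806 and 0.116 CPM in subcutaneous tumours. Its log2 differences were 7.21 (SE 0.602, adjusted p = 0.000441, edgeR) and 4.96 (SE 0.494, adjusted p = 0.000889). The groups of both transporters did not overlap. Aqp4 was the scarcest astrocyte member in tumour cells, with 21 and 37 UMIs (0.968 and 0.956 CPM) in brain, 0 in all 3 liver libraries and 0.0193 to 0.0719 CPM in subcutaneous ones. It was at least 46.0-fold higher in brain than the 3 UMIs that a count of 0 allows over the liver group, and 24.9-fold higher than in subcutaneous tumours (counting interval 10.8 to 70.7). Both Aqp4 differences passed the edgeR test (adjusted p = 0.00214 and 0.00685).

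Of the oligodendrocyte transcripts, Mbp and Mobp followed the same order of sites, but from a level that tumour cells also had away from brain. Mbp was at 184 and 121 CPM in brain, 41.9, 37.3 and 37.5 CPM in liver and 31.2, 35.6 and 37.3 CPM in subcutaneous tumours. The brain libraries were higher without overlap, by 1.85 (SE 0.166, adjusted p = 0.000522, edgeR) and 2.13 (SE 0.167, adjusted p = 0.000318) on the log2 scale. Mobp was at 19.7 and 14.7 CPM in brain and 2.97 to 4.45 CPM at the other sites, with log2 differences of 1.95 (SE 0.173, adjusted p = 0.000521, edgeR) and 2.41 (SE 0.174, adjusted p = 0.000228). Cnp did not follow them. It was at 27.2 and 33.3 CPM in brain, 22.3, 27.4 and 25.5 CPM in liver and 21.5, 19.4 and 20.8 CPM in subcutaneous tumours, so that brain and liver overlapped. Against liver its log2 difference was 0.16 (SE 0.128, adjusted p = 0.405, edgeR) and against subcutaneous 0.56 (SE 0.128, adjusted p = 0.0221).

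In counts, 6 of 7 members were higher in brain than in liver tumour cells, where 13.2% of all tested genes were higher, 8.56% lower and 21.8% called either way. Against subcutaneous tumours 7 of 7 were higher, where 8.94% of tested genes were higher, 6.13% lower and 15.1% called either way. None of the 7 was called lower. Both brain libraries lay above all 6 others for 6 of the 7, against 20.6% of tested genes. The 2 comparisons share the brain libraries. Between liver and subcutaneous tumours edgeR called 0 of 7 (0.933% of tested genes were higher in liver, 1.90% lower and 2.83% called either way), with 4 at an unadjusted p under 0.05, and DESeq2 called Cnp. Against subcutaneous, Gfap, Aqp4 and Cnp lost their calls when brain library 2 was left out, and Gfap and Aqp4 without brain library 1. Those fits rest on 1 brain library, and fewer genes were called in them over all tested genes too. Leaving out subcutaneous library 2 or 3 left 6 and 5 members called. Over all genes these fits called 701 of 13882 and 659 of 13885, against 2099 of 13931 with all libraries.

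**Figure D2:**
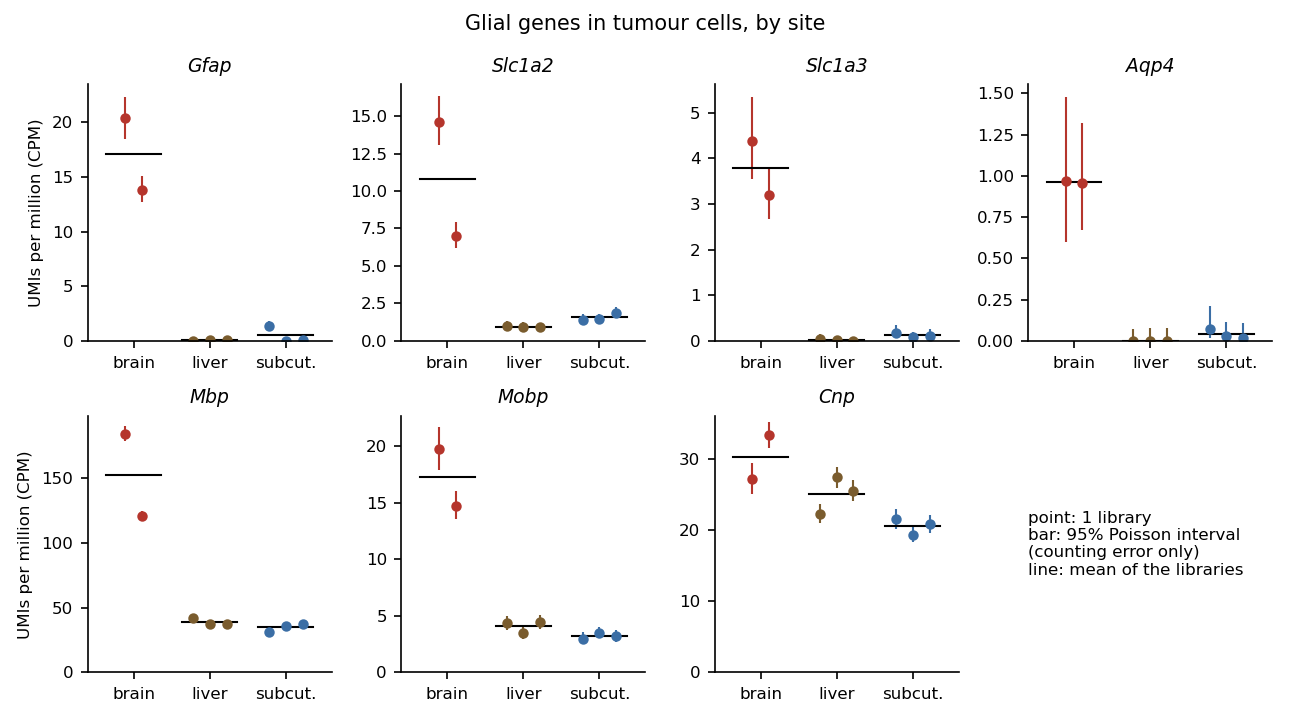
Level of each gene in tumour cells, in CPM, 1 point per library with its 95% Poisson interval for counting error, horizontal lines the means of 2 brain, 3 liver and 3 subcutaneous libraries. The brain points lie above all others for each gene except Cnp, whose brain and liver points overlap.

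The myeloid cells of the same brain libraries were set beside the tumour cells as a reference. Gfap, Slc1a2, Aqp4 and Mobp are among the genes that myeloid cells are not known to make. How glial UMIs came into myeloid barcodes was not tested. Their level need not be one common background, since in library 2 Gfap differed between kinds of myeloid cells (given below). Gfap was at 14.4 and 19.4 CPM in brain myeloid cells, against 20.3 and 13.8 in tumour cells. Tumour cells were higher in library 1 and lower in library 2, with ratios of 1.41 (counting interval 1.07 to 1.89) and 0.714 (0.466 to 1.15), and over both the ratio was 1.04 (0.832 to 1.33). Slc1a2 was at 7.57 and 1.76 CPM in myeloid cells, and tumour cells were the higher in each library, with ratios of 1.93 (1.33 to 2.89) and 3.99 (1.09 to 33.1, from 2 myeloid UMIs). Over both it was 1.55 (1.09 to 2.27), which lies below both because most myeloid cells came from library 1 and most tumour cells from library 2. In a fit with the library as a block, in which 69.3% of 13192 genes were called, 39.9% higher and 29.4% lower in tumour cells, 0 of 7 members were higher and 4 lower (edgeR). The log2 difference was -0.29 for Gfap (SE 0.265, adjusted p = 0.323), 0.69 for Slc1a2 (SE 0.368, adjusted p = 0.0829) and 0.03 for Aqp4 (SE 1.14, adjusted p = 0.982). At 1 residual degree of freedom these do not show that the levels were equal. Tumour cells were lower for Mbp (-0.96, SE 0.136, adjusted p = 8.5e-12) and Mobp (-0.98, SE 0.239, adjusted p = 8.5e-05). The plain CPM ratios of tumour to myeloid cells showed smaller gaps, at 0.852 and 0.55 for Mbp in libraries 1 and 2. Myeloid Mbp UMIs were also spread unevenly over cells. By share of cells with Mbp, tumour cells lay below the myeloid interval in neither library (given below). For Mobp they were 0.800 (counting interval 0.643 to 1.004) and 0.523 (0.366 to 0.771). Tumour cells were also lower for Cnp (-1.55, SE 0.175, adjusted p = 5.6e-18) and Slc1a3 (-3.92, SE 0.252, adjusted p = 3.5e-53). At 1 residual degree of freedom, p-values this small rest on estimates of the spread shared across genes. They do not measure the spread between the brain libraries for each gene. Without normalization factors the median of all genes moved from 0.26 to 0.68 and the Slc1a2 difference, then 1.11, passed the test (adjusted p = 0.00394).

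At the other sites, 189 myeloid cells held 0 UMIs of Gfap, Slc1a2, Slc1a3, Aqp4 and Mobp. They held 11 UMIs of Mbp (12.04 CPM), against 216 and 219 CPM in the brain myeloid cells. Cnp was at 65.7 CPM there and at 54.7 and 81.0 CPM in brain myeloid cells, so it was no lower away from brain in total, though 1 subcutaneous library gave most of those cells (120 of 189).

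Relative to the astrocyte-like and oligodendrocyte-like cells, tumour and myeloid cells carried small and unequal amounts. Over both brain libraries, tumour cells had 1.59% of the Gfap level of astrocyte-like cells, 0.481% of the Slc1a2 level, 0.0909% of Slc1a3 and 0.0807% of Aqp4. Myeloid cells had 1.53%, 0.311%, 1.20% and 0.0642%. Of the oligodendrocyte-like level, tumour cells had 1.21% for Mbp, 0.724% for Mobp and 0.410% for Cnp, and myeloid cells 1.83%, 1.11% and 0.795%. The tumour values include levels also present at the other sites, with means of 36.8 CPM for Mbp, 3.65 for Mobp and 22.8 for Cnp in tumour cells there. The myeloid Slc1a3 value came mostly from cells with microglial genes (given below). All these pooled values weight the libraries differently in each population and move when 1 is left out. Gfap in tumour cells was at 6.68% of the astrocyte-like level in library 1, with 4 such cells, and 1.06% in library 2, and in myeloid cells at 4.73% and 1.49%. Slc1a2 was at 0.801% and 0.333% in tumour cells and at 0.415% and 0.0835% in myeloid cells. In each library Gfap was at a larger part of its astrocyte-like level than Aqp4, in tumour cells (0.0849% and 0.0790%) and in myeloid cells (0.0856% and 0%). As a yardstick from genes outside the gates, tumour cells held 1.41% and 0.328% of the summed level of 15 further myeloid genes in myeloid cells, and myeloid cells held 4.49% and 4.08% of the summed level of 10 neuroendocrine genes in tumour cells. What part of these levels is free RNA, doublets or gating was not tested.

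Shares of cells were compared at equal depth. Thinning kept 2000 UMIs per cell and dropped shallower ones, 47 and 24 brain tumour cells and 160 and 54 brain myeloid cells. Gfap was then seen in 4.01% and 2.75% of brain tumour cells (13.8% and 10.3% before thinning) and in 2.87% and 1.96% of brain myeloid cells (5.96% and 4.65% before, at median depths of 4252.5 and 3966.5 UMIs). Both tumour shares lie inside the exact binomial intervals of the myeloid shares, 1.74% to 4.45% and 0.537% to 4.94%, so no excess over myeloid cells was detectable in these shares. The intervals are wide and do not show equal shares. Slc1a2 (2.24% and 1.31% against 1.51% and 0%), whose summed levels did differ beyond counting error, also lay inside the intervals of its myeloid shares, as did Mobp (4.43% and 2.63% against 3.78% and 3.43%). So did Aqp4 (0.253% and 0.223% against 0.302% and 0%), where a count of 0 in 204 cells allows up to 1.47%. Mbp was seen in 25.7% and 18.2% of tumour cells against 20.7% and 20.1% of myeloid cells, above the myeloid interval of 17.7% to 24.0% in library 1 and inside it in library 2. Myeloid Mbp was the more uneven over cells. Its variance was 12.79 and 18.55 times its mean in the thinned myeloid cells, against 1.97 and 1.80 times in tumour cells. Slc1a3 (0.591% and 0.669% against 9.82% and 8.33%) and Cnp (4.77% and 6.05% against 9.22% and 14.7%) lay below the myeloid intervals in both libraries.

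Between sites, the mean share of brain tumour cells exceeded that of the 6 other libraries by 3.36 percentage points for Gfap, 1.51 for Slc1a2, 0.618 for Slc1a3, 0.227 for Aqp4, 15.1 for Mbp and 2.88 for Mobp. Each of these 6 had p = 0.0357 in the exact two-sided permutation test over 28 choices of 2 libraries, the smallest p it can give, and 0.0417 after adjustment over the 7 genes. For Cnp the difference was 1.05 points (exact permutation p = 0.179). With 1 brain library left out, the smallest p this design allows is 0.143.

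**Figure D3:**
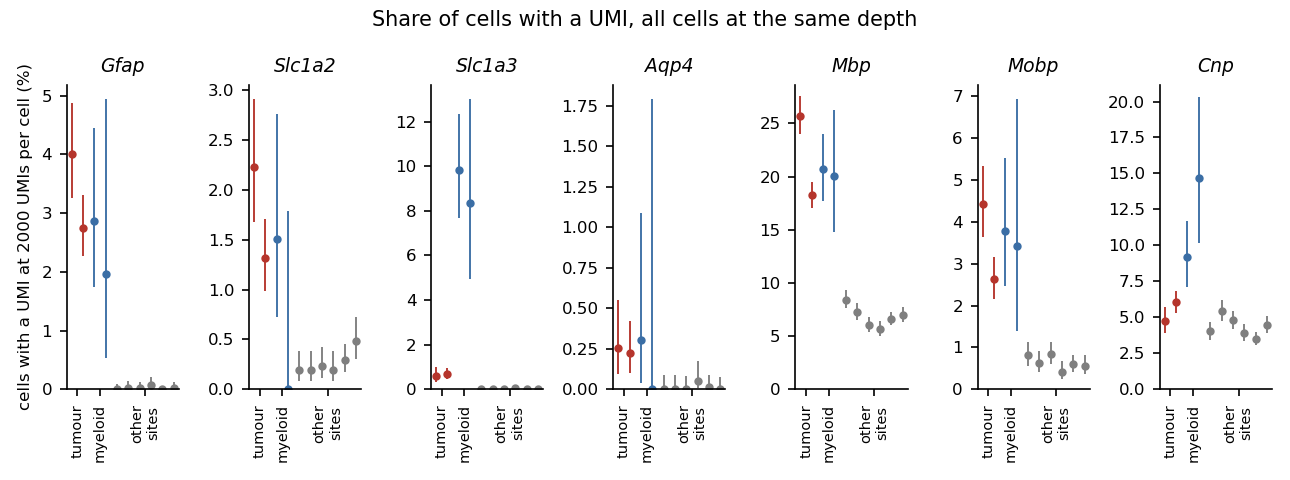
Share of cells with at least 1 UMI of each gene (%) after thinning every cell to 2000 UMIs, for tumour cells (red) and myeloid cells (blue) of brain libraries 1 and 2 and for tumour cells of the 6 other libraries (grey), bars 95% exact binomial intervals. Red and blue lie together for Gfap, Slc1a2, Aqp4 and Mobp, blue lies higher for Slc1a3 and Cnp, and grey lies lower than red for all but Cnp.

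Slc1a3 was divided unevenly among the brain myeloid cells. This split was chosen after the levels had been seen and carries no test: cells with at least 2 UMIs of the microglial genes P2ry12, Tmem119, Siglech, Fcrls and Cx3cr1 were set against the others, leaving aside 12 cells rich in the neutrophil genes S100a8 and S100a9. The 659 cells with microglial genes held 245 of the 250 Slc1a3 UMIs, at 81.2 and 84.5 CPM, and the other 409 myeloid cells held 5, at 2.59 and 1.49 CPM. The latter rest on 4 and 1 UMIs and lie below the 4.38 and 3.204 CPM of tumour cells, counts too few to compare these levels closely. Mbp, Cnp and Mobp showed no such division: Mbp was at 220 and 336 CPM in the first kind and 203 and 140 in the second, Cnp at 54.0 and 73.7 against 56.3 and 86.4, and Mobp at 20.9 and 36.8 against 31.1 and 22.3. Gfap was at 14.6 and 41.2 CPM against 12.9 and 4.47. At the other sites, 34 myeloid cells with 2 or more of these microglial gene UMIs held 0 Slc1a3 UMIs among 251884.

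**Figure D4:**
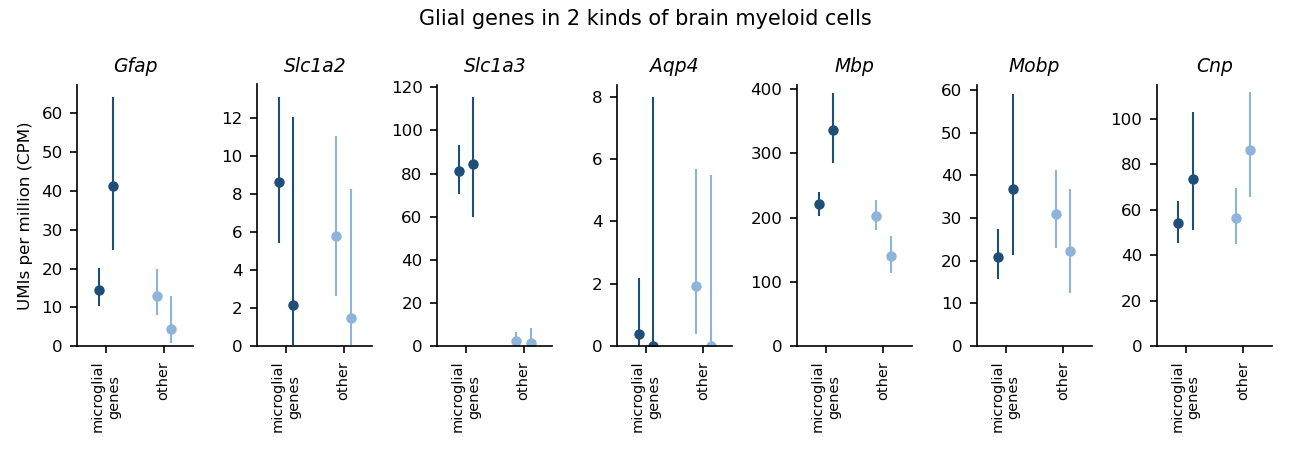
Level of each gene in CPM in brain myeloid cells with at least 2 UMIs of 5 microglial genes (dark) and in the other myeloid cells (light), 1 point per brain library, bars 95% Poisson intervals. Slc1a3 is above 80 CPM in the first kind in both libraries and below 3 CPM in the second.

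The makeup of the glial UMIs differed between populations. Per 100 Mbp UMIs, oligodendrocyte-like cells held 48.35 and 82.83 Cnp UMIs in libraries 1 and 2, and 64.2 over both. Liver and subcutaneous tumour cells, each summed over its libraries, held 64.3 and 58.4. Brain tumour cells held 14.8 and 27.6, and brain myeloid cells 25.3 and 36.9. Slc1a3 gave 208 and 193 UMIs per 100 of Slc1a2 in astrocyte-like cells but 30.0 and 45.6 in brain tumour cells. Gfap gave 11.1 and 11.5 UMIs per 100 of Mbp in brain tumour cells and 6.67 and 8.84 in brain myeloid cells, close in the 2 libraries for tumour cells.

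The level above the other sites isolates what brain tumour cells had more of. Less the mean of the 6 other libraries, of the summed excess of the 7 genes Mbp made 71.3% and 65.1%, Gfap 9.73% and 10.5% and Mobp 7.80% and 8.602%. Slc1a2 made 6.48% and 4.47%, Slc1a3 2.09% and 2.43%, Aqp4 0.460% and 0.726% and Cnp 2.13% and 8.17%. The same genes can be set beside the brain barcodes removed for over 10% mitochondrial UMIs, 299 and 158 in number. In those, Mbp made 55.1% and 55.0% of the 7 genes' UMIs, Gfap 9.42% and 8.13%, Mobp 6.32% and 7.23% and Cnp 2.11% and 1.36%. Slc1a2 made 22.6% and 21.4%, several times its share in the tumour excess, and Slc1a3 3.62% and 5.78%. Mbp, Gfap and Mobp thus had lower shares in the removed barcodes than in the tumour excess. Slc1a2, Slc1a3 and Aqp4 (0.887% and 1.08% in the removed barcodes) had higher ones. Cnp was about the same in library 1 and lower in library 2. The level of the other sites was subtracted for the tumour cells only, so these shares are not the same measure. In oligodendrocyte-like cells Mbp made 54.3%, Cnp 34.9% and Gfap 0.212% of the UMIs of the 7 genes, and in astrocyte-like cells Slc1a3 made 46.2%. Whether the removed barcodes and the tumour cells drew on one source was not tested.

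**Figure D5:**
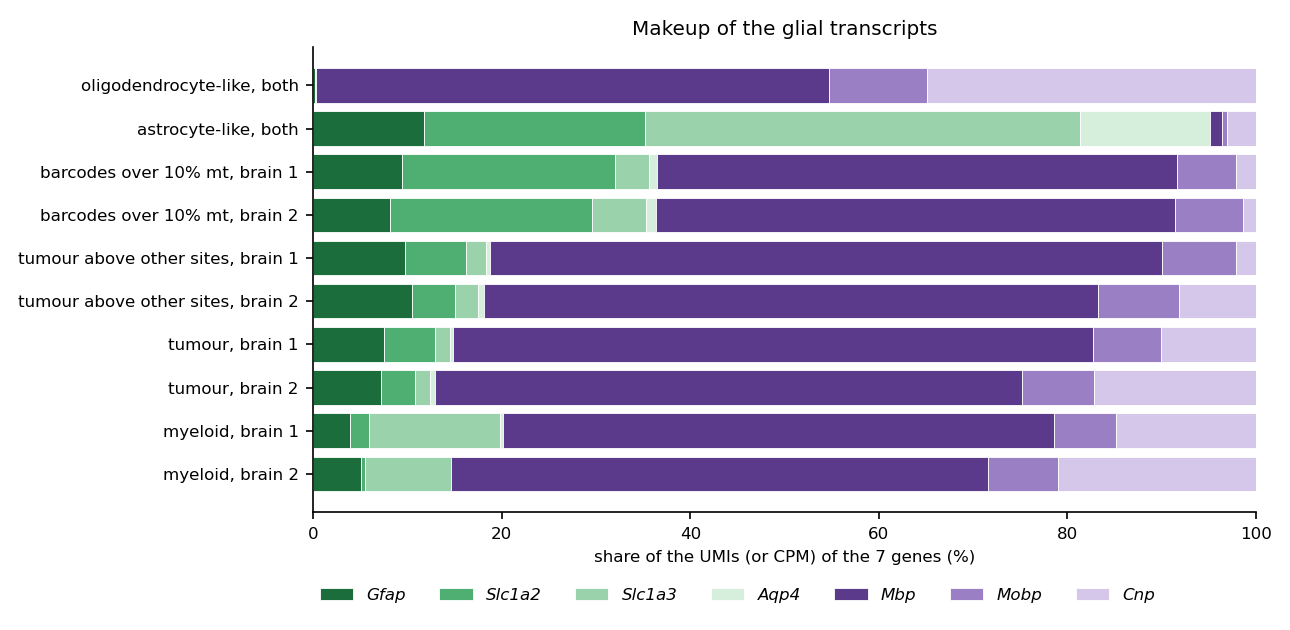
Share of each of the 7 genes in their summed UMIs (%), for oligodendrocyte-like and astrocyte-like cells of both brain libraries, for barcodes removed for over 10% mitochondrial UMIs, for the level in brain tumour cells above the mean of the 6 other libraries (in CPM), and for tumour and myeloid cells. Cnp is a wide band in oligodendrocyte-like cells (34.9%) and a narrow one in the removed barcodes (2.11% and 1.36%), and in the tumour level above other sites it is 2.13% in library 1 and 8.17% in library 2.

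Over single tumour cells, the transcripts were spread thinly. In brain libraries 1 and 2, 265 and 342 tumour cells held 1 Gfap UMI, 68 and 70 held 2 to 4, and 1 and 5 held 5 or more. Leaving out the cells with 5 or more changed the Gfap level little, to 20.1 and 12.97 CPM. Mbp was less even: 189 and 201 brain tumour cells held 5 or more UMIs, the highest 149 and 75, and without these cells the levels were 111 and 85.1 CPM. That is still above the 31.2 to 41.2 CPM of the other sites counted the same way. Elsewhere at most 9 cells per library held 5 or more Mbp UMIs. With the cells split by depth into 3 groups of like size, Gfap UMIs per 1000 tumour cells were 112, 135 and 300 from the shallow to the deep group in brain library 1 and 100, 116 and 179 in library 2, while eGFP, made by the tumour cells, rose from 14670 to 45455 and from 23402 to 47356. As CPM, Gfap did not increase with depth (26.7, 16.9 and 20.4 CPM, and 18.9, 13.7 and 12.05 CPM), and Mbp and Mobp were likewise highest in the shallow group. Slc1a2 went from 10.07 to 17.7 CPM in library 1 and from 6.67 to 7.92 CPM in library 2, and Cnp from 22.8 to 30.4 and from 26.3 to 38.3 CPM. In library 1 Slc1a2 UMIs per 1000 cells went from 42.2 to 260.5.

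The tumour cells with the most Gfap were looked at one by one, chosen after their values were seen. In all, 10 held 5 or more Gfap UMIs, 6 of them in brain, and none passed a glial or myeloid gate. In subcutaneous library 1, the cell with 37 Gfap UMIs held 93 Apoe, 12 Sparc, 32 eGFP and 17 Chga UMIs. The next 2 cells there, with 11 and 7 Gfap UMIs, held 18 and 21 Sparc UMIs. In brain library 2, the cell with 9 Gfap UMIs held 50 Apoe, 25 Sparc and 9 Hes5 UMIs, 19 of eGFP, and none of Mbp. The other 5 brain cells held 2 to 9 Apoe, 0 to 2 Sparc and 0 to 1 Hes5 UMIs, and 4 of them held 7 to 24 Mbp UMIs. The cell in subcutaneous library 3, with 6 Gfap UMIs, held none of Apoe or Sparc. Sparc, Apoe and Hes5 are genes that astrocytes also express, and whether any of the 10 were tumour cells, mixed droplets or host cells was not tested.

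Other glial genes, from lists chosen with earlier results of these data known, were counted the same way. Over all tested genes, 7.35% were higher in brain tumour cells than at both other sites and 3.45% lower, the shares to read each list against. Of the 10 oligodendrocyte gate genes 9 were tested and 8 were higher in brain tumour cells than at both other sites. Their median log2 difference against subcutaneous was 5.52, where that of all genes was 0.00. Cldn11, a tight junction protein of myelin, was at 4.89 and 4.57 CPM in brain against 1.05 to 2.29 elsewhere (adjusted p = 0.0302 against subcutaneous, edgeR), and Mag, a myelin glycoprotein, at 1.84 and 0.775 against 0 to 0.0578. Ugt8a, an enzyme of myelin lipid synthesis, was the exception, at 12.3 and 14.1 CPM in brain and 11.2 to 17.4 elsewhere. Of the 12 astrocyte gate genes 9 were higher than at both sites, with a median of 4.36 against subcutaneous. Mlc1, a membrane protein of endfeet, was at 2.67 and 1.73 CPM against at most 0.144. Acsbg1, a fatty acid activating enzyme, was at 1.98 and 2.07 CPM against at most 0.108, while Ntsr2 was at 40.2 and 47.7 CPM in brain and 27.9 to 54.3 elsewhere.

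The next lists are read against the same shares over all tested genes, 7.35% higher and 3.45% lower at both sites. Of 15 further astrocyte genes 8 were higher in brain tumour cells than at both sites and none lower. Ndrg2, S100b, Clu and Ttyh1 were among them, Ndrg2 at 26.9 and 20.3 CPM against 0.607 to 1.20. Cpe, Glul, Mt3 and Aldoc, the most abundant of that list, were not, although Mt3 and Aldoc were higher than in liver: Glul, glutamine synthetase, was at 98.4 and 84.7 CPM in brain and 54.5 to 85.1 elsewhere. Of 12 tested further oligodendrocyte genes 4 were higher than at both sites, Car2 at 6.41 and 4.52 CPM against at most 0.1254, and 1 was lower, Ppp1r14a. Of 5 tested OPC gate genes 4 were higher, Olig1 at 3.04 and 1.47 CPM against at most 0.0203 and Pdgfra, the growth factor receptor of precursors, at 8.81 and 8.94 against 0.293 to 2.54. Against brain myeloid cells, where no member was higher in tumour cells, Pdgfra was (log2 difference 5.08, adjusted p = 1.5e-08, edgeR), as were Ugt8a (4.59) and Cldn11 (1.55, adjusted p = 0.0345), while Mag was lower (-3.53). These are gate genes, and cells rich in them were taken out of the cells below the tumour rule but not out of the tumour cells, so this comparison is not even-handed for them.

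Markers of other cells were counted against the same 7.35%. Of 15 further myeloid genes 8 were higher in brain tumour cells than at both sites, with summed levels of 118 and 25.6 CPM, and so were 9 of the 16 myeloid gate genes. Of the neuronal list 6 of 10 genes were tested and 2 were higher, Camk2a at 7.84 and 2.51 CPM against 0.585 to 0.931 and Nrgn at 5.67 and 2.38 against 0.0771 to 0.360. Of 9 tested endothelial genes 1 was higher, Cldn5, at 11.3 and 0.413 CPM against at most 0.0240, a count near the share over all genes. The summed endothelial level was 39.8 and 9.71 CPM in brain and 9.03 to 16.9 CPM elsewhere, so library 2 did not stand apart. Of 4 tested ependymal and choroid genes 1 was higher, Ttr. Ttr, the transthyretin of choroid plexus and liver, was at 11.5 and 60.7 CPM in brain tumour cells, against 1.44 to 4.21. Of the hepatocyte list, liver tumour cells had 4 of 10 genes higher than subcutaneous ones, where 0.933% of all tested genes were higher. Alb, albumin, was at 8.65, 0.753 and 2.85 CPM in liver and 0 in both brain libraries. In that list Ttr and Trf were higher in brain than at both sites and Apoa1 lower. Of 10 neuroendocrine genes outside the tumour rule, Calca and Resp18 were higher in brain than at both sites. Of the rule's own genes, eGFP was higher and Mycl lower in brain than in liver, and neither was called against subcutaneous. Both genes chose the tumour cells, so their levels depend on the rule and these calls are not an independent result. Of 4 tested erythroid genes edgeR called 0 against either site, with 0 at an unadjusted p under 0.05. The part of these other cells' RNA in the members' levels was not tested.

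By Pearson correlation of log2(CPM + 1) over 12 profiles (tumour cells of 8 libraries, myeloid and glial cells of the 2 brain libraries) and 14178 genes, each member's pattern had close neighbours. Gfap was nearest to Chd9, Ifi27 and Ndrg2 (r = 0.973 each), with Chd9 at 0.9733. Slc1a2 was nearest to Atp6v1g2, Clu and Sfxn5 (0.986 each), and Slc1a3 to Kcnj10, Pdlim2 and Fech (0.995, 0.995 and 0.993). Aqp4 was nearest to Opalin, Mal and Htra1 (0.998, 0.997 and 0.997) and Cnp to Gal3st1, Ednrb and Cldn10 (0.996 each). Mbp was nearest to Car2, Plekhb1 and Mobp (0.997, 0.997 and 0.996), and Mobp to Fabp7, Car2 and Mbp (0.997, 0.997 and 0.996). The profiles share libraries and their range is set by 2 small glial sums, so these values order genes and carry no p.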

How the data were processed

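The deposited files are gene by cell matrices of UMI counts, whole numbers that the authors did not normalize, per the file headers from Cell Ranger 3.0.0; Cell Ranger, STAR and the build mm10 are named in the submitters' processing notes, without further settings. Barcodes with under 500 genes or over 10% mitochondrial UMIs (13 genes) were left out. Tumour cells had at least 0.2% of UMIs from eGFP and Mycl. The other cells were gated on the myeloid list (1%) or on the glial lists together (0.5%), with at least 4 genes seen. Counts were summed per library and population (sums of at least 20 cells) and fitted with edgeR 4.0.16 (quasi-likelihood F test, TMM factors, Benjamini-Hochberg adjustment over all genes tested, threshold 0.05), over all 8 libraries for sites and with the library as a block for tumour against myeloid cells. The scripts were tested on simulated data. DESeq2 1.42.0 was an alternative. Levels are CPM (UMIs of a gene scaled to one fixed total) with exact Poisson intervals (95%), and shares have exact Clopper-Pearson intervals, covering counting error only. A count of 0 allows 3. Coordinates are from GENCODE on GRCm38, and promoters from RefSeq. The members and lists were chosen with earlier results of these data known. The rule for named genes took the 7 members, of each list the 4 with the highest mean in brain tumour cells and those past the threshold against both sites, of which examples are given, and the 3 most alike genes per member. The lists were those of the gates (tumour, myeloid, astrocyte, oligodendrocyte, OPC), further astrocyte, oligodendrocyte, myeloid and neuroendocrine genes, and neuronal, endothelial, ependymal and choroid, erythroid and hepatocyte genes. Normalization, filters, gates, thinning, doublet removal and leaving out each library were varied. Depth was 27140735 to 63049542 UMIs per library. Some genes of the lists are counted there but not reported by name here.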

Additional observations from a re-analysis of the deposited data

Results flagged for a closer look

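A signal appeared in barcodes that the filters left out of the main comparisons. In the brain libraries, barcodes removed by the filters (366 and 207, median depth 1414 and 1322 UMIs) held the 7 glial genes at a summed 3635 CPM in brain library 1 and 2870 CPM in brain library 2. The removed barcodes of the other 6 libraries held 14.2 to 69.2 CPM, and the kept tumour cells of the brain libraries 271 and 194 CPM. Slc1a2 was at more than its Gfap level there, with 227 and 259 Slc1a2 UMIs per 100 of Gfap, against 71.9 in the tumour cells of brain library 1. Among removed brain barcodes past the tumour rule (131 and 48) the sum was 2601 and 1390 CPM, against 28.8 to 99.6 CPM in the other libraries. Neuronal genes were at 571 and 378 CPM in the removed brain barcodes and at 7.30 to 41.7 CPM in those of the other libraries.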

How the results depend on the processing

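Against liver, 5 or 6 of the 7 members were called under each alternative run, including DESeq2, other scalings, filters and tumour rules, and against subcutaneous 5 to 7 outside the leave-one-out fits, which gave 4 to 7 (6 in each such fit against liver). Between liver and subcutaneous, DESeq2 called 1 (Cnp), as did thinning; leave-one-out fits called 0 to 0. By unadjusted exact p the share test called 4 to 6 genes, and 0 to 6 when 1 library was left out, since 1 brain library cannot reach the threshold. Adjusted over the 7 genes, the lowest exact p was 0.05 when thinned to 1000 UMIs, 0.0625 for at least 2 UMIs and 0.0556 without any 1 liver or subcutaneous library, so none of these called a gene. Where a brain library was left out, the other is assumed to vary like the other groups, and edgeR called fewer of all tested genes as well. Against subcutaneous, the calls over all genes moved from 2099 to 659 without subcutaneous library 3 and to 4754 without subcutaneous library 1. Cnp turned against liver to -0.0500 when cells were thinned and to -0.0540 in tumour cells without glial gate UMIs, an alternative added after the data were seen that keeps 1304 and 2101 brain cells. In that set Slc1a2 turned to -0.18 against myeloid cells, and Gfap passed the test as lower than in myeloid cells. Only the tumour cells were filtered there, by other glial genes, and the myeloid cells were not. The choice of cells itself can thus lower the tumour side, and no conclusion is drawn from these 2 values. Against myeloid cells Aqp4 turned to -0.30 with glial sums added, -0.0633 without the library block and -0.0160 without gated doublets, and ranged from -0.487 to 7.25 with 1 brain library left out. Gfap turned to 0.00146 with thinning, 0.12 without factors, and ranged from -0.841 to 0.0182 with 1 brain library left out. These leave-one-out values have no test. The cause was not tested. Without factors the median of all genes against liver moved from 0.00 to 0.12 and between liver and subcutaneous from -0.01 to -0.12; no member turned or changed its call there. With the replicate number as a replicate block, 6 and 7 members were called against liver and subcutaneous and 0 between those, as without it. Same-numbered libraries correlated between -0.236 and 0.242, so the numbers were not read as pairs. Depth limits Aqp4 most, with 58 UMIs in brain tumour cells, and 19 astrocyte-like cells limit every level set against them.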
